A study of Homo sapiens with 6 samples.

Results

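The genes described here were the transcription factor NRF2, its inhibitor, and 7 redox enzymes and carriers whose genes NRF2 is known to activate. They were chosen by name as glutathione, thioredoxin, quinone and NRF2 regulator genes, with earlier results of these data known. The set made up 9 of the 63677 genes in the table. RNA was sequenced from LoVo, an established human colorectal cancer cell line, as 3 libraries from cells given a negative control siRNA (scramble) and 3 from cells given a mix of 2 siRNAs against the long noncoding RNA *SNHG15* (siSNHG15). Both groups were transfected at 25 nM for 48 h, the study describes the libraries as biological replicates, and the comparison asks which transcripts differ once *SNHG15* is reduced. Because both siRNAs were given together, an effect of one siRNA alone cannot be told apart from that of the other.

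The transcription factor NRF2, encoded by *NFE2L2*, is the main activator of antioxidant and detoxifying genes. In unstressed cells KEAP1 binds NRF2 and presents it to a CUL3 ubiquitin ligase, so that it is degraded. Oxidants and electrophiles modify cysteines of KEAP1, after which NRF2 accumulates, pairs with a small MAF protein and binds antioxidant response elements, short sequences near its target genes. Much of this control acts on the NRF2 protein, which RNA counts do not measure.

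The core of the antioxidant response element, TGACNNNGC on either strand, was sought from 500 bases before to 100 bases after the start of the canonical transcript of each gene, in GRCh37. That start can lie inside the gene's annotated span, which covers all its transcripts, as for *PRDX1* (start at 45987556) and *NFE2L2* (start at 178129455), so other starts of a gene were not searched. The windows of 4 of the 9 genes held it, against 23.2% of 19894 windows of protein-coding genes. The stretches that hold it are shown because they are the sequence feature by which NRF2 targets are usually recognised, with the core in capitals and each read 5′ to 3′ in the direction of transcription.
*NQO1*, chr16:69760895-69760933, minus strand: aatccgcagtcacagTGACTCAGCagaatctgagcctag
*GCLM*, chr1:94374997-94375035, minus strand: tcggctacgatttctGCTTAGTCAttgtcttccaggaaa
*TXNRD1* distal, chr12:104609443-104609481, plus strand: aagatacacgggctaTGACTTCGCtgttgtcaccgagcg
*TXNRD1* proximal, chr12:104609534-104609557, plus strand: gccaggcgtccttcgGCTCCGTCA
*PRDX1*, chr1:45987674-45987712, minus strand: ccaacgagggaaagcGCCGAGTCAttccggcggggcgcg
Counted from the canonical start, the core began 455 bases upstream for *NQO1* (start at 69760463), 34 for *GCLM* (94374986), 99 and 8 for *TXNRD1* (104609557) and 141 for *PRDX1*. No match was found in the windows of *NFE2L2*, *KEAP1*, *GCLC*, *TXN* and *SRXN1*, which says only that these letters are not in these windows. A match is a description of the sequence and not evidence of binding.

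Library totals lay between 3446922 and 10256710 counts, with scramble replicate 3 the lowest. *SNHG15* itself (in CPM, read counts scaled to a common library size after TMM normalization) stood at 290, 277 and 261 in the scramble libraries and at 77.2, 83.1 and 87.2 in the siSNHG15 libraries, a log2 fold change of -1.74 (SE 0.12, adjusted p = 2.6e-05), lower in each library labelled siSNHG15. Among the siSNHG15 libraries, replicate 1 stood farthest from the scramble libraries, at 39.1 on the first principal component against 14.3 and 11.5 for replicates 2 and 3 and -24.0 to -17.0 for the scramble libraries. Of 10 epithelial and colorectal markers, 6 (*EPCAM*, *KRT19*, *KRT20*, *CDX1*, *VIL1* and *CEACAM5*) had at most 1 count in every library. The other 4 passed the filter. Over the 6 libraries *KRT8* held 41.6 to 68.3 CPM, *CDX2* 25.4 to 29.0, *KRT18* 20.2 to 28.9 and *CDH1* 3.05 to 8.55. Taken at face value the low counts of the 6 go against the cell line's label, but reads of these 6 genes may also have been lost in counting. Neither was tested. The summed level of the 10 was 102 to 110 CPM in the scramble and 106 to 117 CPM in the siSNHG15 libraries. Of 9 matched markers of other cell types, 8 had at most 1 count in every library, the exception being *COL1A1*, and their sum was 0.23 to 0.60 CPM in the scramble and 0.72 to 1.39 CPM in the siSNHG15 libraries. The part of either marker list in the results below was not tested.

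Among the 8 genes that passed the filter on low counts, 0 were called at an adjusted p under 0.05 (quasi-likelihood test of edgeR, with p adjusted by Benjamini-Hochberg across 12507 genes), against 5.36% of all genes tested. Of the 8, 4 had a higher and 4 a lower fitted value with siSNHG15, with log2 fold changes from -0.32 to 0.30 and a median of -0.09, beside a median of 0.00 over all genes tested. At an unadjusted p under 0.05 there was 1 gene, *TXN*, where 22.5% of all genes tested passed. DESeq2 also called 0 of the 8, against 6.05% of its tested genes, with an unadjusted p of 0.026 for *TXN* and of 0.040 for *TXNRD1*. The libraries of the groups did not overlap for 2 of the 8, *TXN* and *GCLC*, where 28.8% of all genes tested did not overlap. The limits of these statements are the 95% intervals given below, since a p that misses the threshold does not show equal levels. In bulk RNA, fewer cells of a type and less RNA per cell cannot be told apart.

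**Figure D1:**
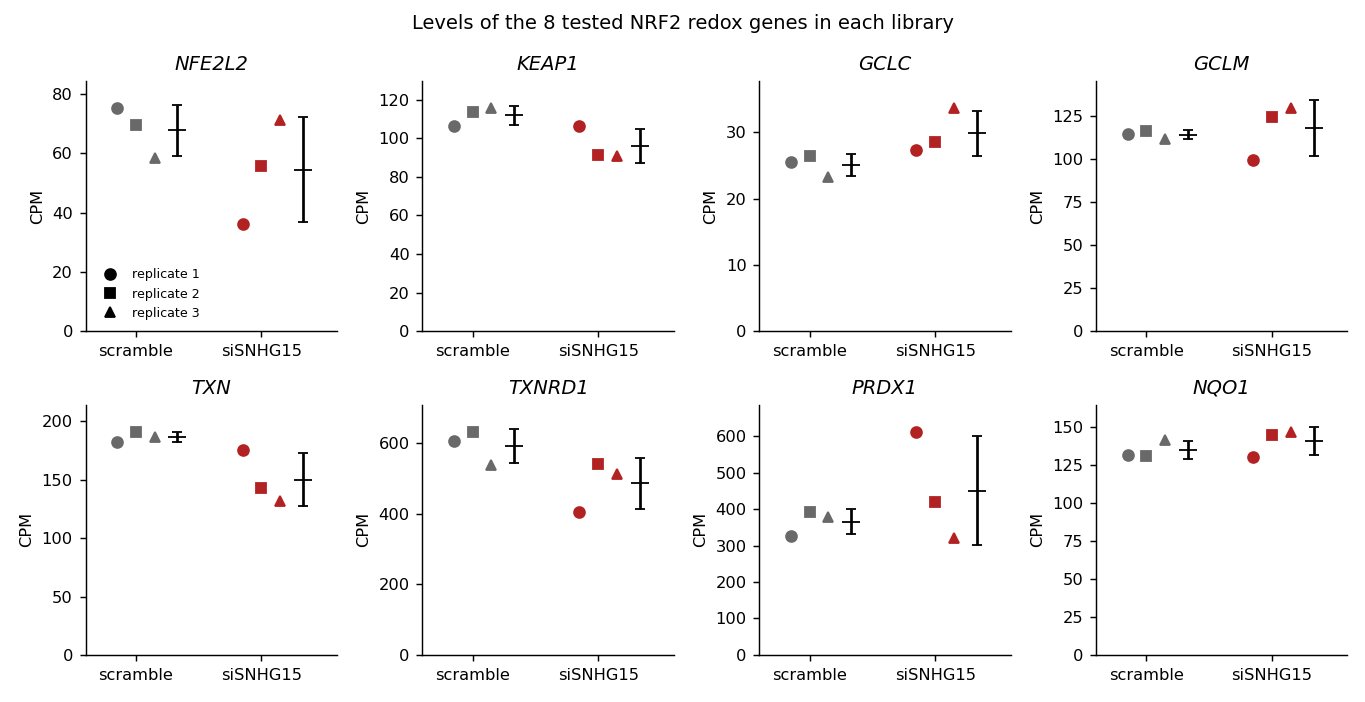
Level of each of the 8 tested genes (y axis, CPM after TMM scaling) in the scramble (grey) and siSNHG15 (red) libraries, with a marker shape for each replicate number and the mean and SD (n = 3) beside the points. siSNHG15 replicate 1 is the lowest siSNHG15 library for *NFE2L2*, *GCLC*, *GCLM*, *TXNRD1* and *NQO1* and the highest for *KEAP1*, *TXN* and *PRDX1*.

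*NFE2L2* (ENSG00000116044), the gene of NRF2, lies on chromosome 2 (178083395 to 178257484, minus strand). It stood at 75.3, 69.4 and 58.4 CPM in scramble replicates 1 to 3 and at 36.2, 55.8 and 71.4 CPM in siSNHG15 replicates 1 to 3. The siSNHG15 libraries spread from well below the scramble libraries to within their range, so the groups overlap. The log2 fold change was -0.32 (95% interval -0.76 to 0.12, adjusted p = 0.38). Without siSNHG15 replicate 1 it was -0.10, and without siSNHG15 replicate 3 it was -0.57, with no call in either fit. The annotated span of *NFE2L2* overlaps *HNRNPA3* (178077422 to 178088687) and *AGPS* (178257474 to 178431752) on the opposite strand, the latter only at its edge. The counts of these whole genes equalled 179% and 36.4% of those of *NFE2L2*. The strand setting of the counting is not given in the sources used here, and the part of these overlaps was not tested.

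*KEAP1* (ENSG00000079999), whose protein holds NRF2 for degradation, lies on chromosome 19 (10596801 to 10614234, minus strand). Its scramble libraries held 106, 114 and 116 CPM and its siSNHG15 libraries 106, 91.3 and 90.7 CPM. The siSNHG15 replicates 2 and 3 lay below every scramble library, while siSNHG15 replicate 1 was level with scramble replicate 1. *KEAP1* had a log2 fold change of -0.22 (95% interval -0.48 to 0.04, adjusted p = 0.31).

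The ratio of *NFE2L2* to *KEAP1* counts within a library, which does not depend on how libraries are scaled, was 0.709, 0.610 and 0.504 in the scramble and 0.340, 0.611 and 0.788 in the siSNHG15 libraries. The siSNHG15 libraries held both the lowest and the highest ratio. The exact two-sided permutation test gave p = 0.9 (adjusted p = 1 over 3 ratios), where 3 against 3 cannot give less than 0.1.

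Glutamate-cysteine ligase makes the first intermediate of glutathione synthesis and is built of a catalytic subunit, GCLC, and a modifier subunit, GCLM. *GCLC* (ENSG00000001084) lies on chromosome 6 (53362139 to 53481768, minus strand). It stood at 25.5, 26.5 and 23.3 CPM in the scramble and 27.3, 28.6 and 33.7 CPM in the siSNHG15 libraries. Every siSNHG15 library was above every scramble library, by a small margin for replicate 1, but the log2 fold change of 0.24 (95% interval -0.07 to 0.56) was not called (adjusted p = 0.35).

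*GCLM* (ENSG00000023909) lies on chromosome 1 (94350755 to 94375012, minus strand). Its scramble libraries were close together at 114, 116 and 112 CPM, and its siSNHG15 libraries stood at 99.1, 124 and 130 CPM. Thus siSNHG15 replicate 1 was below and the other siSNHG15 libraries above all scramble libraries. The log2 fold change was 0.04 (95% interval -0.24 to 0.32, adjusted p = 0.88), and its sign turned to -0.029 without siSNHG15 replicate 3.

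The *GCLM* to *GCLC* count ratio was 4.48, 4.39 and 4.79 in the scramble and 3.63, 4.34 and 3.84 in the siSNHG15 libraries. All siSNHG15 libraries lay below all scramble libraries, with a geometric mean ratio at 86.2% of the scramble level. The exact two-sided permutation test gave p = 0.1, the smallest that 3 against 3 can give, and an adjusted p of 0.3 over 3 ratios, so the difference was not called.

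*TXN* (ENSG00000136810), which encodes thioredoxin, the small carrier that reduces disulfides in cytosolic proteins, lies on chromosome 9 (113006090 to 113018787, minus strand). The scramble libraries held 182, 191 and 186 CPM and the siSNHG15 libraries 176, 143 and 132 CPM. All siSNHG15 libraries were below all scramble libraries, replicate 1 only slightly. The log2 fold change was -0.31 (95% interval -0.60 to -0.03, adjusted p = 0.18 and 0.032 unadjusted), so *TXN* was not called. Without siSNHG15 replicate 1 it was called (log2 fold change -0.44, adjusted p = 0.026) in a fit that called 6.34% of all genes tested. *TXN* was the only call among the 8 genes in any alternative run here. Genes listed as processed copies of *TXN* took counts equal to 12.7% of those of *TXN* over the 6 libraries, mainly *TXNP6*, *TXNP5* and *TXNP4*. How reads that fit both were counted is not given in the sources used here, and their part in the values of *TXN* was not tested.

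*TXNRD1* (ENSG00000198431), which encodes the cytosolic thioredoxin reductase that recharges thioredoxin with NADPH, lies on chromosome 12 (104609557 to 104744085, plus strand). It stood at 606, 633 and 537 CPM in the scramble and 405, 540 and 514 CPM in the siSNHG15 libraries. The groups overlap only between scramble replicate 3 and siSNHG15 replicate 2, and siSNHG15 replicate 1 was lowest. *TXNRD1* had a log2 fold change of -0.28 (95% interval -0.58 to 0.01, adjusted p = 0.23), and -0.17 without siSNHG15 replicate 1. The annotated span of the gene also holds *RPL18AP3*, a copy of a ribosomal protein gene on the same strand, whose counts equalled 86.1% of those of *TXNRD1*. Whether it shares exon bases with *TXNRD1* was not examined, and its part in the values of *TXNRD1* was not tested.

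The *TXN* to *TXNRD1* count ratio was 0.301, 0.302 and 0.347 in the scramble and 0.433, 0.265 and 0.257 in the siSNHG15 libraries. Replicate 1 had the highest ratio of all 6 libraries, and the other siSNHG15 libraries had the lowest ratios. The exact permutation test gave p = 1 (adjusted p = 1).

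*PRDX1* (ENSG00000117450), which encodes a peroxiredoxin that removes hydrogen peroxide with electrons from thioredoxin, lies on chromosome 1 (45976586 to 46008404, minus strand). Its scramble libraries held 327, 392 and 377 CPM and its siSNHG15 libraries 613, 418 and 321 CPM. siSNHG15 replicate 1 was far above and replicate 3 below all scramble libraries. *PRDX1* had a log2 fold change of 0.30 (95% interval -0.11 to 0.72, adjusted p = 0.38), which fell to 0.01 without siSNHG15 replicate 1 and was 0.50 without siSNHG15 replicate 3, with no call in either fit.

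*SRXN1* (ENSG00000271303), the sulfiredoxin gene, whose enzyme restores peroxiredoxins that have been overoxidized, lies on chromosome 20 (627259 to 633844, minus strand). It had 0 counts in each scramble library and 0, 1 and 2 counts in the siSNHG15 libraries, at or under the floor of 3 counts in every library, and was not tested. Of its 2528 exon bases, 90.7% are also exons of a second gene model on the same strand (ENSG00000270299), which had at most 1 count in any library. How reads that fit both models were counted is not given in the sources used here, so these counts do not show whether the transcript was present, and its planned ratio to *PRDX1* was not computed.

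*NQO1* (ENSG00000181019), which encodes a quinone reductase that uses NADH or NADPH and is a widely used readout of NRF2 activity, lies on chromosome 16 (69740899 to 69760571, minus strand). The scramble libraries held 132, 131 and 142 CPM and the siSNHG15 libraries 130, 145 and 147 CPM. The groups overlap, with siSNHG15 replicate 1 the lowest of the 6. The log2 fold change of 0.06 had a 95% interval of -0.19 to 0.32 (adjusted p = 0.79), which spans 0.877 to 1.24 times the scramble level.

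**Figure D2:**
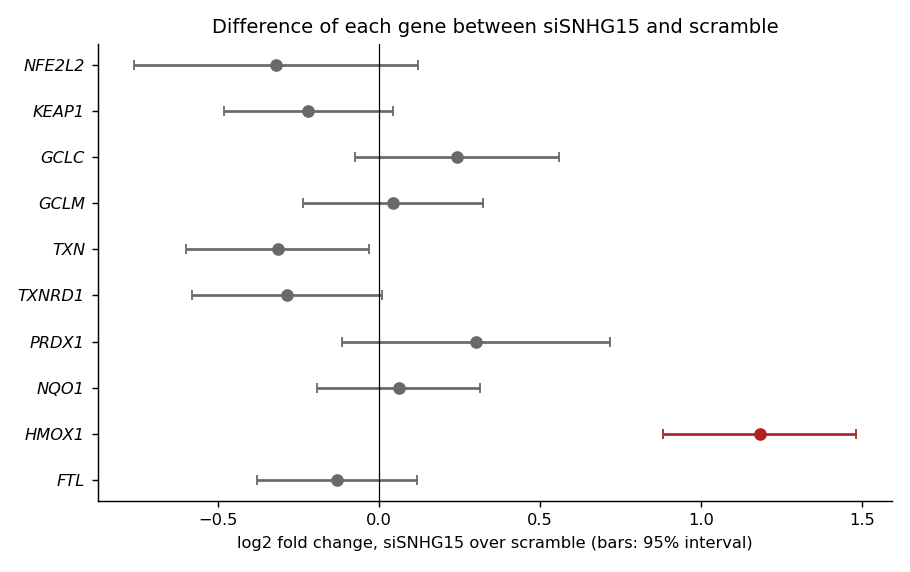
Log2 fold change of siSNHG15 over scramble (x axis) with its 95% interval for the 8 tested genes and for *HMOX1* and *FTL*, red where the adjusted p was under 0.05 (edgeR, n = 3 per group). *HMOX1*, at 1.18, is the gene in red, and the intervals of the other genes reach no higher than 0.72.

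Within the siSNHG15 group, replicate 1 differed from the mean of replicates 2 and 3 in both directions. It was lower for 5 of the 8 genes, with log2 differences of -0.81 for *NFE2L2*, -0.38 for *TXNRD1*, -0.36 for *GCLM*, -0.19 for *GCLC* and -0.16 for *NQO1*. It was higher by 0.73 for *PRDX1*, 0.35 for *TXN* and 0.22 for *KEAP1*. For 5 of the 8 genes the difference was larger in size than 0.26, the median over the 8543 genes with a mean of at least 10 CPM. The spread inside the siSNHG15 group was larger than that inside the scramble group for each of the 8 genes, for example for *NFE2L2* (SD 17.7 against 8.62 CPM), *GCLM* (16.2 against 2.36 CPM), *TXN* (22.6 against 4.53 CPM) and *PRDX1* (149 against 34.0 CPM). No test of the spread was run, and the share of all genes with a wider siSNHG15 spread was not computed. Pairs of libraries were also compared by chi-square per degree of freedom over genes with at least 10 counts in the pair. It was 13.2 and 18.5 for siSNHG15 replicate 1 against replicates 2 and 3, and 4.31 between replicates 2 and 3. Among the scramble pairs it was 4.05 to 8.73, highest for replicates 1 and 2, the deepest libraries. The measure was not adjusted for library depth, which differed between the libraries. Because it covers all genes with enough counts, the distance of siSNHG15 replicate 1 was not particular to the 8 genes.

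**Figure D3:**
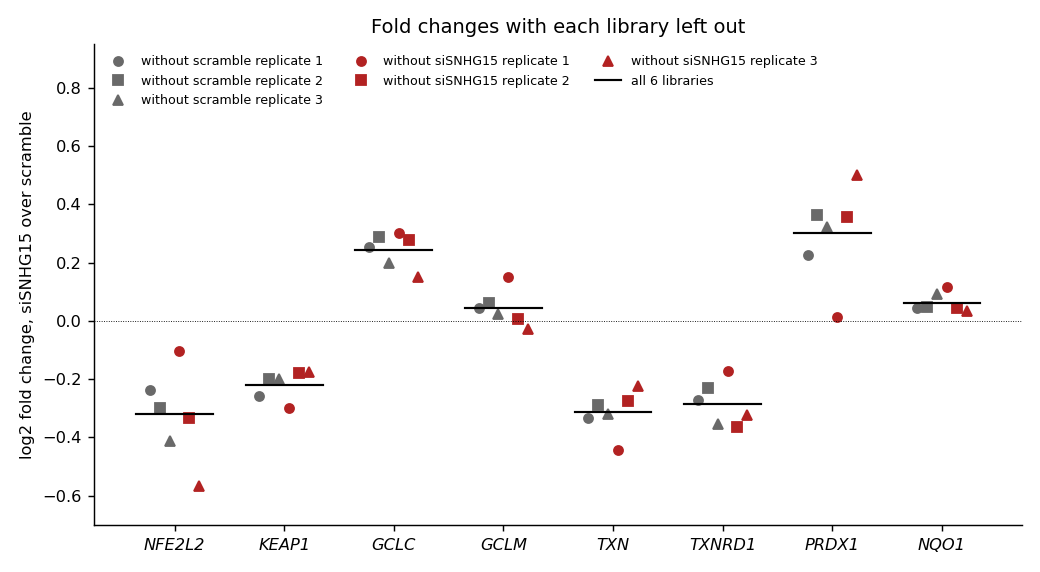
Log2 fold change of siSNHG15 over scramble (y axis) for each tested gene with one library left out at a time (points, grey for a scramble and red for an siSNHG15 library, shape for the replicate number) and with all 6 libraries (line). Leaving out siSNHG15 replicate 1 moves *PRDX1* from 0.30 to 0.01 and *NFE2L2* from -0.32 to -0.10. In every fit shown, *NFE2L2*, *KEAP1*, *TXN* and *TXNRD1* stay below 0 and *GCLC*, *PRDX1* and *NQO1* above 0. *GCLM* changes sign, to -0.029 without siSNHG15 replicate 3.

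Levels were compared between genes as CPM per kilobase of the canonical transcript (mean ± SD, n = 3). In the scramble libraries *PRDX1* was highest at 387 ± 36.0, followed by *TXN* at 253 ± 6.14 and *TXNRD1* at 153 ± 12.8. *NQO1* stood at 53.4 ± 2.33, *KEAP1* at 43.7 ± 1.96, *NFE2L2* at 27.7 ± 3.52 and *GCLM* at 23.4 ± 0.48. *GCLC* was lowest of the tested genes at 6.63 ± 0.43. The glutathione subunits were therefore low beside the thioredoxin and peroxiredoxin genes, and the transcript of the modifier exceeded that of the catalytic subunit per length. In the siSNHG15 libraries the order was the same except for *GCLM* (24.1 ± 3.32) and *NFE2L2* (22.3 ± 7.22), which changed places and whose spreads overlap in that group.

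*HMOX1* encodes heme oxygenase, which degrades heme and is a target of both NRF2 and the repressor BACH1. It stood at 330, 292 and 270 CPM in the scramble and 631, 789 and 607 CPM in the siSNHG15 libraries, with no overlap. It rose by 1.18 on the log2 scale (95% interval 0.88 to 1.48, adjusted p = 0.0015), and was called in all 6 fits with a library left out and in the 6 other alternatives. The lower end of its interval was above the upper end of the interval of each of the 8 tested genes, of which *PRDX1* reached highest at 0.72. The difference itself was not tested, and *HMOX1* was listed with earlier results of these data known. *HMOX1* had no core match in its own window.

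The ferritin chain genes are also known NRF2 targets. *FTL*, the light chain, held 7394 to 8778 CPM in the scramble and 7043 to 8173 CPM in the siSNHG15 libraries, with a log2 fold change of -0.13 (95% interval -0.38 to 0.12, adjusted p = 0.55). *FTH1*, the heavy chain, had at most 3 counts in every library and was not tested. The treatment of multiply placed reads is not given in the sources used here, so these counts do not show whether the *FTH1* transcript was present. Of the other heme genes tested, *SLC48A1* (a heme transporter, log2 fold change 0.43, adjusted p = 0.18) and *BLVRB* (biliverdin reductase B, log2 fold change 0.24, adjusted p = 0.24) had the smallest p but did not pass.

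Around these genes, 103 others were listed by role in 7 groups, of which 82 were tested. The lists were also chosen with earlier results of these data known. Their counts beside the shares of all genes are therefore a description only. In the edgeR fit, 6 of the 82 rose with siSNHG15 (3.13% of all genes tested rose) and 2 fell (2.23% of all genes tested fell), and the median log2 fold change of the 82 was 0.06. DESeq2 called 10 of them, 6 higher and 4 lower, where it called 6.05% of all its tested genes (388 higher and 386 lower). The counts by list below are those of edgeR, which called 5.36% of all genes tested. The core was found in the windows of 25 of the 82 (30.5%) and of 3 of the 8 called genes (*SQSTM1*, *GSTA4* and *IDH1*). Of 10506 windows of tested protein-coding genes, 25.0% held it, and the difference from that share was not tested.

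**Figure D4:**
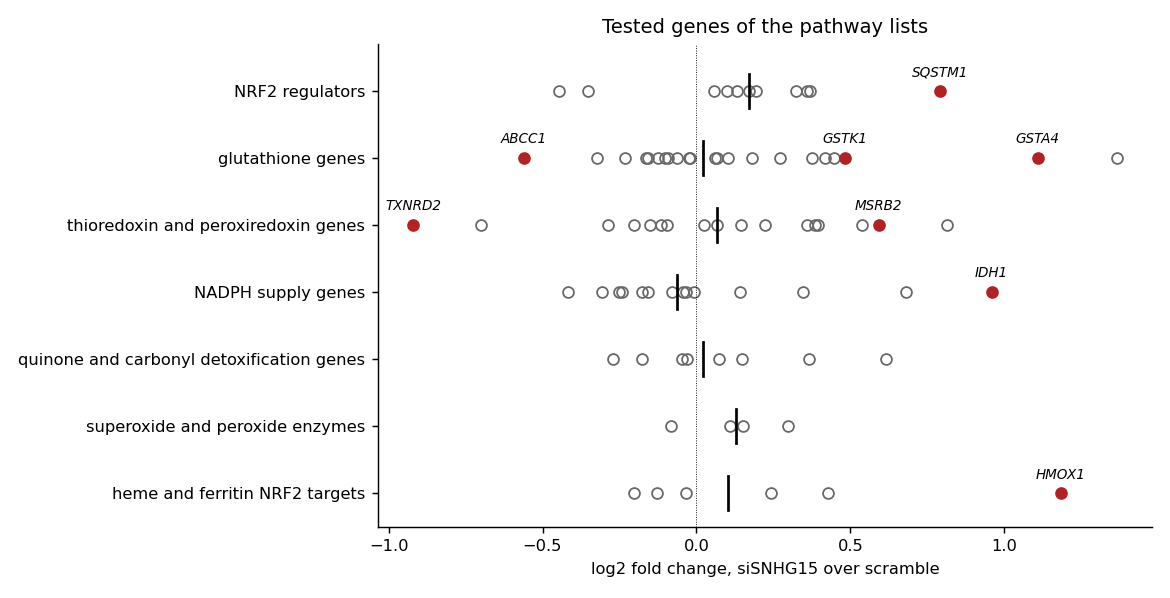
Log2 fold change of siSNHG15 over scramble (x axis) for each tested gene of the 7 lists, filled red and named where the adjusted p was under 0.05, open otherwise, with the list's median as a bar. Between 0 and 3 genes were called per list, the list medians lie between -0.06 and 0.17, and called genes lie on both sides of 0.

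Among 11 tested regulators of NRF2, 1 rose and none fell, with a list median of 0.17. *SQSTM1*, whose protein p62 binds KEAP1 and carries it to autophagy and which is also an NRF2 target, stood at 27.3, 28.3 and 27.5 CPM in the scramble and 50.5, 49.9 and 43.8 CPM in the siSNHG15 libraries. Each group was tight and the groups were well apart, and *SQSTM1* rose by 0.79 on the log2 scale (SE 0.14, adjusted p = 0.0074), a call kept in all 6 fits with a library left out. *DPP3*, a peptidase that competes for KEAP1 (log2 fold change 0.32, adjusted p = 0.17), and *MAFF*, a small MAF partner (log2 fold change -0.44, adjusted p = 0.20), did not pass.

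Among 22 tested glutathione genes, 2 rose and 1 fell, with a list median of 0.02. *GSTA4*, a glutathione transferase acting on lipid peroxidation products, stood at 9.96, 8.55 and 8.16 CPM in the scramble and 20.7, 16.7 and 20.8 CPM in the siSNHG15 libraries, and rose by 1.11 on the log2 scale (adjusted p = 0.0051). *GSTK1*, a mitochondrial and peroxisomal glutathione transferase, held 107 to 112 CPM in the scramble and 141 to 158 CPM in the siSNHG15 libraries, a rise of 0.48 (adjusted p = 0.030). *ABCC1*, an exporter of glutathione conjugates, held 37.5 to 52.1 CPM in the scramble and 29.4 to 32.8 CPM in the siSNHG15 libraries. It fell by 0.56 on the log2 scale (adjusted p = 0.0497), a call lost in all 6 fits with a library left out. The call of *GSTK1* was kept in 2 of those 6 fits and that of *GSTA4* in all 6.

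Among 17 tested thioredoxin and peroxiredoxin genes, 1 rose and 1 fell, with a list median of 0.07. *TXNRD2*, the mitochondrial counterpart of *TXNRD1*, stood at 47.9, 48.7 and 46.9 CPM in the scramble and 26.3, 26.0 and 23.6 CPM in the siSNHG15 libraries. Its groups were far apart, and it fell by 0.92 on the log2 scale (SE 0.13, 95% interval -1.21 to -0.63, adjusted p = 0.0039), with the call kept in all 6 fits with a library left out. The interval for *TXNRD1*, -0.58 to 0.01, did not overlap it, and the difference between the pair was not tested. *MSRB2*, a mitochondrial methionine sulfoxide reductase, held 23.2 to 28.7 CPM in the scramble and 34.8 to 41.0 CPM in the siSNHG15 libraries, a rise of 0.59 (adjusted p = 0.036) that was called in 1 of the 6 fits with a library left out. *NXN*, nucleoredoxin, did not pass (log2 fold change 0.82, adjusted p = 0.059). *SESN2*, a stress-induced sestrin named after its values were seen, held 391, 511 and 324 CPM in the scramble and 173, 313 and 271 CPM in the siSNHG15 libraries. It did not pass in edgeR (log2 fold change -0.70, adjusted p = 0.068) and was called lower by DESeq2 (adjusted p = 0.015).

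Among 14 tested genes of NADPH supply, 1 rose and none fell in edgeR, with a list median of -0.06. *IDH1*, the cytosolic isocitrate dehydrogenase that makes NADPH, stood at 35.7, 41.6 and 33.3 CPM in the scramble and 55.5, 71.1 and 89.9 CPM in the siSNHG15 libraries. It rose by 0.96 on the log2 scale (adjusted p = 0.0091), called in 4 of the 6 fits with a library left out. *MTHFD1*, a folate enzyme (log2 fold change -0.42, adjusted p = 0.063), and *H6PD*, a dehydrogenase of the endoplasmic reticulum (log2 fold change 0.68, adjusted p = 0.12), did not pass in edgeR. DESeq2 called *MTHFD1* lower (log2 fold change -0.42, adjusted p = 0.029).

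None of the 8 tested quinone and carbonyl detoxification genes was called by edgeR, and 0 had an unadjusted p under 0.05. The smallest p were those of *EPHX1* (epoxide hydrolase, log2 fold change 0.61, adjusted p = 0.26), *PTGR1* (prostaglandin reductase, -0.27, adjusted p = 0.29) and *AKR1A1* (an aldo-keto reductase, -0.18, adjusted p = 0.38). None of the 4 tested superoxide and peroxide genes was called, and 1 had an unadjusted p under 0.05, *PON2* (log2 fold change 0.30, adjusted p = 0.21). Over all genes tested, 5.36% were called and 22.5% had an unadjusted p under 0.05. Of the 82 list genes, 25 had an unadjusted p under 0.05. By list these were 5 of 11 regulators, 6 of 22 glutathione genes and 7 of 17 thioredoxin and peroxiredoxin genes. There were also 4 of 14 NADPH supply genes and 2 of 6 heme and ferritin genes. *SOD2*, the mitochondrial superoxide dismutase, was not matched to a single identifier and *SOD3* had 0 counts in every library, so neither was tested. *SOD1*, the cytosolic superoxide dismutase, had a log2 fold change of 0.11 (adjusted p = 0.68), and its copper chaperone *CCS* one of 0.15 (adjusted p = 0.68).

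**Figure D5:**
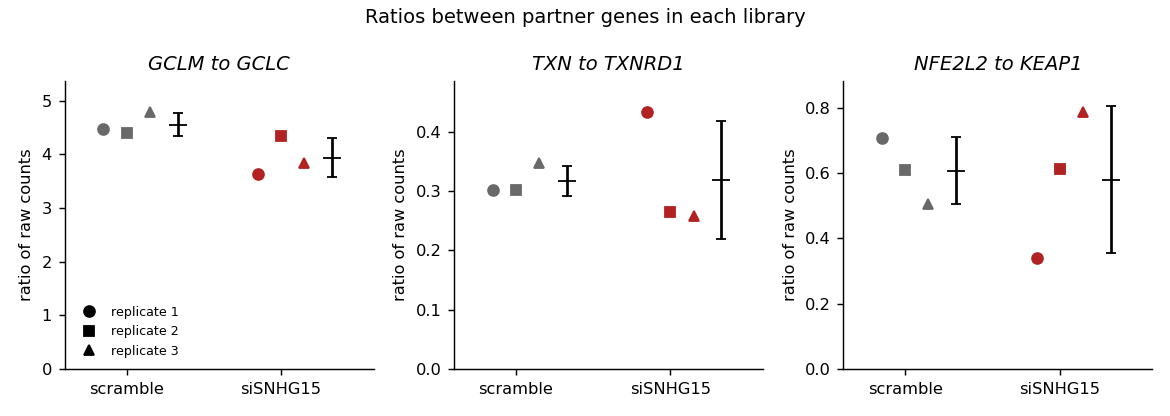
Ratio of raw counts between partner genes (y axis) in each scramble (grey) and siSNHG15 (red) library, with a marker shape for each replicate number and the mean and SD (n = 3) beside the points. The *GCLM* to *GCLC* ratio lies at 4.39 to 4.79 in the scramble and 3.63 to 4.34 in the siSNHG15 libraries, and the other ratios overlap between the groups.

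*TXN* had the smallest p of the 8 genes, and the tested genes whose log2 CPM followed it most closely over the 6 libraries were sought among 8535 genes with a mean of at least 10 CPM. The closest were *CHTF18*, a subunit of a clamp loader in DNA replication (Pearson r = 0.991), the ribosomal pseudogene *RPL36P14* (0.990), the splicing factor *SF3B3* (0.989), the zinc finger gene *ZNF431* (0.989) and *TJAP1*, a tight junction associated protein gene (0.988). They were picked as the highest of 8535 correlations over 6 points that share 2 groups, so the values only describe likeness. None of the 5 was called, with log2 fold changes from -0.44 to -0.29 beside -0.31 for *TXN*.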

How the data were processed

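RNA of LoVo cells, 3 scramble and 3 siSNHG15 libraries, was prepared with a stranded mRNA kit and read as 75 bp pairs. The authors deposited raw counts per Ensembl gene, not normalized. The submitters' notes name STAR, featureCounts and hg19, while the paper's methods name bowtie2 with hg19; the annotation, strand setting and treatment of multiply placed reads are not given in the sources used here. The notes and the methods also name different RNA extraction reagents.

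From the counts, edgeR 4.0.16 (R 4.3.3; limma 3.58.1) filtered genes with filterByExpr (minimum count 10, total 15), scaled with TMM and ran the quasi-likelihood test on 12507 of 63677 genes, with Benjamini-Hochberg adjusted p and a threshold of 0.05. Standard errors came from the F statistic, and CPM used TMM-scaled totals. Alternatives were DESeq2 1.42.0, RLE and upper-quartile factors, other filters, a replicate block and leaving out each library. Ratios used exact permutation tests (scipy 1.17.1). Steps were tested on simulated data. Names and GRCh37 positions came from GENCODE 44, in which 8012 identifiers had no entry. Sequences were read from the GRCh37 genome.

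Members and lists were chosen with earlier results of these data known. Outside the members, each list's called genes were named (up to 6), with the smallest p filling up to 3, besides *SNHG15*, *HMOX1*, *FTL* and *FTH1*. The floor was 3 counts per library. Intervals cover the spread between libraries.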

Additional observations from a re-analysis of the deposited data

How the results depend on the processing

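Over all genes tested, 671 were called (392 higher, 279 lower), 58.4% of them higher, and 1312 without a filter on low counts. Upper-quartile factors moved the split to 515 higher and 230 lower (69.1% higher). With each library left out in turn the count was 139 to 812, lowest without scramble replicate 2. The count of called members was 0 to 1 (1 without siSNHG15 replicate 1) and that of called list genes, 8 with all libraries, was 4 to 8, with 4 without scramble replicate 1 or 3, and 5 without scramble replicate 2 or siSNHG15 replicate 2. The differences in log2 ratio lay between -0.29 and -0.16 for *GCLM* to *GCLC*, between -0.28 and 0.10 for *TXN* to *TXNRD1*, and between -0.40 and 0.20 for *NFE2L2* to *KEAP1*, the last 2 changing sign. The log2 fold change of *GCLM*, 0.04 with all libraries, lay between -0.029 (without siSNHG15 replicate 3) and 0.15. The causes were not tested. Counts of called members were 0 under every alternative that kept all libraries. No pairing of the libraries by replicate number was detected (correlations of deviations -0.07, 0.16 and -0.04 for like numbers, -0.17 to 0.14 for unlike numbers). With 3 libraries per group these values cannot show that pairing was absent. With the replicate number as a replicate block, 543 genes, 0 members and 6 list genes were called, and the paired differences in log2 ratio had the same means by construction: -0.21, -0.03 and -0.14. Under the block *GSTK1* (0.48, adjusted p = 0.063), *MSRB2* (0.59, adjusted p = 0.063) and *ABCC1* lost their calls. *ABCC1* also lost its call with upper-quartile factors and with 10 counts in every library. The list genes called were 10 with DESeq2 (6 higher, 4 lower, adding *SESN2* and *MTHFD1*) and 12 without a filter (8 higher, 4 lower), against 6 higher and 2 lower. Scramble replicate 3, the shallowest library, held 77 counts of *GCLC* and 193 of *NFE2L2*, which limits the precision of both. The ratio of *SRXN1* to *PRDX1* could not be formed.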

Other observations

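Of the 103 listed redox genes, 21 were not tested and 17 had at most 3 counts in every library, among them *GPX2*, *AKR1C1*, *UGT1A6* and *ALDH3A1*, all at 0. *TXNIP*, the thioredoxin inhibitor, *ME1*, malic enzyme, and *NNT*, the mitochondrial transhydrogenase, were also at 0 counts in every library. A count of 0 does not show that a transcript was absent, and whether reads of such genes were lost in counting was not tested.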
